A study of Oryza sativa with 15 samples.

Results

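The comparison is between 2 rice crosses that share the direction japonica mother by indica father but use different parents, LR and YW. Counts of maternal and paternal allele reads were summed per locus over the SNPs listed in both crosses' tables, and a locus was compared where those SNPs held at least 30 reads in LR and 20 in YW. That left 9712 loci of the 13828 that appear in either table; 10487 loci had a shared SNP and 775 of them fell under the read minimum. For each locus, 2 quantities were compared: the maternal share, which is the percentage of allele reads that carry the mother's allele, and the level in RPM, which is its reads when all allele reads of the cross are scaled to 1000000.

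LR has Liuqianxin-A as mother and Rongfeng-B as father, and YW has Yu6-A as mother and Wufeng-B as father. RL and WY are the same pairs of lines with the parents exchanged (Rongfeng-A by Liuqianxin-B, Wufeng-A by Yu6-B), and they are used only to read the same loci with the direction of the cross turned round. The A lines are cytoplasmic male sterile, so every mother carries a sterility cytoplasm, and the B lines are their fertile maintainers. In all 4 crosses the mothers were grown in the field, emasculated before they flowered and then kept in a growth chamber, and endosperm was drawn out with a pipette 5 days after fertilization. A library pooled 20 to 30 endosperms, with 3 libraries for LR and 2 for YW. The 5 libraries of the inbred parents, among 15 in all, were not used here.

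Endosperm is the nourishing tissue of the seed and inherits 2 maternal genomes and 1 paternal genome, so a locus whose copies are all transcribed alike has a maternal share of 66.7%. At imprinted loci one parent's copies are largely silent: in plants, DNA demethylation of the maternal genome in the central cell and histone methylation by the Polycomb repressive complex 2 mark the alleles apart. The same tissue builds starch and storage proteins, whose genes switch on as the endosperm passes from free nuclei to cells and starts to fill.

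The tables hold 1 maternal and 1 paternal column per cross, with the replicate libraries pooled. Every value below is therefore 1 value per cross, its interval covers counting error only, no difference could be set against the spread between plants or libraries, and no p-value is given. Allele reads came to 29714227 in LR and 29149713 in YW, of which 82.5% and 88.3% lay at shared positions. The median compared locus had 376 reads in LR and 432 in YW over a median of 3 SNPs. Of the genes that mark starchy endosperm, 5 of 8 could be compared and all were read in both crosses; none differed by the rule for levels given further on. Of the aleurone oleosin genes, OLE16 had 125 RPM in LR and 79.2 in YW and OLE18 had 104 and 149; they lay in opposite directions and neither was called. Markers of nucellus and seed coat had no SNP in either table (0 of 4), so these maternal tissues were not analysed through them. The photosynthesis genes used as markers of green pericarp, 3 loci, summed to 113 RPM in LR and 180 in YW, and to 46.8 in RL and 79.8 in WY. Their part in the results below was not tested.

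The typical locus was near 2:1 in LR and clearly more maternal in YW. The median maternal share was 67.1% in LR (95% interval from the ranked loci 66.9 to 67.3) and 74.6% in YW (74.5 to 74.8), with quartiles at 60.8 and 72.8% and at 68.9 and 79.5%. YW had the higher share at 8051 loci (82.9%), by a median of 6.87 percentage points. In the opposite direction of the cross the same loci showed no such shift: medians were 63.9% in RL and 63.7% in WY, and WY was the higher at 4593 of 9348 loci (49.1%). Chromosome by chromosome, medians ran from 66.4 to 68.0% in LR and from 74.2 to 75.1% in YW, so these ranges did not meet.

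**Figure D1:**
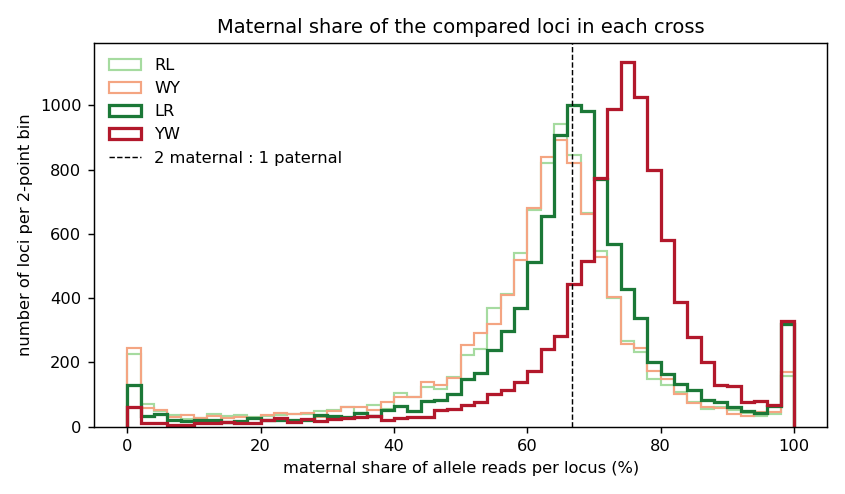
Number of compared loci (y axis) per bin of maternal share in percent (x axis) for each of the 4 crosses, with a dashed line at 2 maternal to 1 paternal. The peak of YW lies to the right of the other 3: its median is 74.6%, against 67.1% in LR, 63.9% in RL and 63.7% in WY.

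The shift was not an equal number of points everywhere. Loci read at under 5% from the mother in LR (179 loci, median 0.72%) had a median of 14.4% in YW. Those at 5 to 10% in LR (59 loci) had 29.8%, and those at 10 to 20% (99 loci) had 36.8%. The 4059 loci between 60 and 70% in LR had a median of 65.9% there and 74.0% in YW. At the maternal end the crosses met: 403 loci above 95% in LR had medians of 99.8% and 99.4%, and YW was the higher at 17.6% of them. Values at both ends of such a binning lean toward the middle in the cross not used for binning. The shift did not vary much with level: split into 4 equal groups by level, the median log2 difference in odds (maternal over paternal reads) ran from 0.49 to 0.54.

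SNPs where the Liuqianxin allele was listed as the reference (46583 of the shared SNPs) had median shares of 67.9% in LR and 75.6% in YW. Where the Rongfeng allele was the one listed (804 SNPs), medians were 64.3% and 69.7%. The allele listed as reference thus moved with the share, and YW lay above LR in both sets.

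A locus was called different in share when the log2 odds differed by at least 1, that is 2-fold, after the median difference of all loci had been taken off, and when the Wilson 95% intervals of the 2 shares did not overlap. By this rule 631 loci (6.5% of those compared) had a higher maternal share in YW and 183 (1.88%) a lower one. Without taking off the median the numbers were 1455 and 139, which moved the part called higher from 77.5% of calls to 91.3%. With the median taken off, calls varied with level. From the lowest to the highest of the 4 groups by level, higher calls fell from 11.4 to 3.54% of loci. Lower calls rose from 1.36 to 2.55%. The percentages of all loci set beside gene lists and classes below pool these groups. Of the 631 loci, 541 lay under 66.7% in LR and 235 were at or under 28.6%, the share at 5 times under 2:1; that is 37.2% of them, against 4.45% of all compared loci. Their median share was 44.1% in LR and 77.2% in YW, and 300 of them crossed from under 66.7% to over it. The same reads chose these loci, so the choice itself favours higher shares, more maternal reads and fewer paternal reads in YW. Among them the log2 ratio of maternal RPM, YW over LR, had a median of 1.45 and that of paternal RPM a median of −0.72. Over all compared loci these medians were 0.30 and −0.22.

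**Figure D2:**
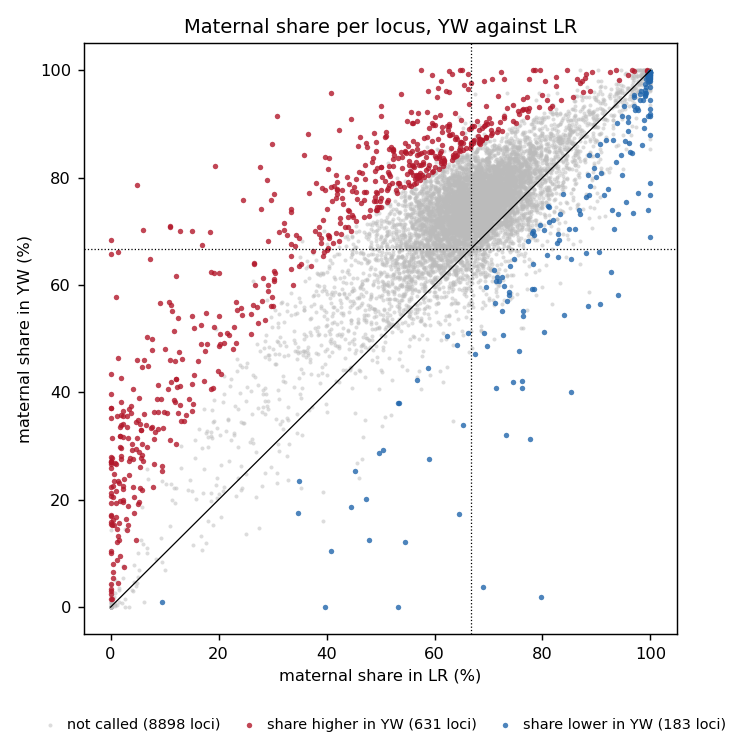
Maternal share in YW (y axis, percent) against LR (x axis, percent), 1 point per compared locus, with lines at equality and at 66.7%; red points are the 631 loci called higher in YW and blue points the 183 called lower. A band of red points runs up from the left edge, where LR lies near 0%, and most blue points lie along the right edge, where LR lies near 100%.

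Loci with the mother's allele nearly silent in LR led the calls. The 10 named here have the largest differences among called loci with at least 100 reads in both crosses, at least 3 SNPs and every SNP on the same side. CAMK_CAMK_like.1 (LOC_Os01g61590, SNPs at chromosome 1 from 35619959 to 35625501), a putative calcium and calmodulin dependent kinase, had 0 maternal reads of 1237 in LR (3 reads, the limit a count of 0 allows, would be 0.243%) and 25.8% in YW (Wilson 95% interval 23.4 to 28.4). RL had 9.44% and WY 0.762%. The mother's allele of this kinase was thus low in 3 crosses, and YW stood apart from them.

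OsYUCCA11 (LOC_Os12g08780, chromosome 12, 4515689 to 4517287) encodes a flavin monooxygenase that makes the hormone auxin. In LR 1 of 2069 reads was maternal (0.0483%, 0.00853 to 0.273), and in YW 28.01% (26 to 30.1) were. Maternal RPM were 0.0337 in LR and 17.7 in YW, and paternal RPM 69.6 and 45.6, while RL and WY had shares of 0.385% and 0.640%. Total level was nearly the same, 69.6 and 63.3 RPM. OsTAR1 (LOC_Os05g07720), an aminotransferase that feeds the YUCCA step, moved likewise, from 1.61% (1.33 to 1.93) to 23.1% (22.2 to 24.0). Its maternal RPM were 3.63 in LR and 70.2 in YW, and its paternal RPM 223 and 234. OsYUCCA9 (LOC_Os01g16714), read from both parents, had 62.2% and 77.9% and was not called. So 2 of the 3 listed auxin genes were called (66.7%, against 6.5% of all loci). Both were read almost wholly from the father in LR, RL and WY.

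The other named loci with a higher share included LOC_Os08g24420, annotated as SWP, with 0 of 374 maternal reads in LR (up to 0.802%) and 27.3% in YW. LOC_Os03g27450, a putative ADP-ribosylation factor, a small GTPase of vesicle traffic, had 0.206% and 27.8%. LOC_Os11g07910, of the transmembrane 9 superfamily, had 0.235% and 31.6%. LOC_Os08g01054, annotated as a retrotransposon protein, had 0 of 197 (up to 1.52%) and 27.1%. LOC_Os01g27750, a dehydroquinate dehydratase and shikimate dehydrogenase of aromatic amino acid synthesis, had 0 of 436 (up to 0.688%) and 15.9%. All 5 lay under 2:1 in RL and WY also, with shares from 0.386 to 37.4%.

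LOC_Os07g27450, without annotated function, and OsFBO11 (LOC_Os02g29150), an F-box protein gene, behaved otherwise. OsFBO11 had 0 of 252 maternal reads in LR (up to 1.19%), 35.3% in YW, 55.4% in RL and 48.1% in WY. LOC_Os07g27450 had 0 of 305 (up to 0.984%), 27.0%, 56.6% and 54.0%. At these 2 loci LR stood apart: the Liuqianxin allele was not detected when it came from the mother, and gave 201 of 451 and 240 of 553 reads in RL, where it came from the father.

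Genes read from the father were therefore followed as a class. To keep YW out of the choice, loci were taken that lay at least 5 times under 2:1 in LR, RL and WY, a choice added after the data had been seen. There were 155, with median shares of 5.24% in LR, 6.10% in RL and 5.88% in WY. In YW their median was 31.9% (29.9 to 34.5), the quartiles were 24.3 and 38.9% and the range ran from 1.43 to 82.0%. YW was higher than LR at 154 of the 155, 60 stayed at or under 28.6%, and 5 passed 66.7%. Median maternal RPM were 0.673 in LR and 4.87 in YW, while median paternal RPM were 12.6 and 11.5. The paternal allele was thus at a like level in both crosses and the difference lay in maternal reads. When YW, RL and WY chose the class and LR was left out of the choice, 60 loci qualified, and their medians were 22.1% in YW and 1.72% in LR, with YW higher at 59.

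Within the 155 loci, the lowest YW share was that of the NAC gene LOC_Os11g31360, followed by LOC_Os05g48560 (1.51% in LR, 3.12% in YW) and the cytochrome b5-like gene LOC_Os09g16520 (2.27% and 5.49%). The highest were LOC_Os07g40040 (27.7% and 82.0%), the phenylalanine ammonia-lyase gene LOC_Os02g41630 (24.5% and 75.8%), a gibberellin response modulator gene, LOC_Os03g09280 (27.8% and 74.1%), the phosphatidylinositol kinase gene LOC_Os01g13360 (18.4% and 69.96%), and OsFBX116 (LOC_Os04g08470), with 0 of 66 maternal reads in LR and 68.4% of 114 in YW. The class therefore did not sit at 1 common value in YW.

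Loci read from the indica allele whichever parent gave it had a lower median in YW than the paternal class. Chosen in the same way in LR, RL and WY, there were 117, with medians of 1.61% in LR and 3.44% in YW (0.98 to 7.49). In YW 101 of them stayed at or under 28.6% and 66 under 5%, and 32 had no maternal read, against 41 in LR. YW was higher than LR at 65 of the 117, and 23 were called higher, against 6.5% of all loci; the third quartile in YW was 19.5% and the highest value 71.1%. Deeply read examples were the O-methyltransferase gene LOC_Os11g19880, with 0 of 1182 maternal reads in LR and 0 of 547 in YW, and LOC_Os08g13130, with 0 of 1588 in LR and 0.193% of 1036 in YW. ZmEBE-1-like LOC_Os11g11620 had 0.104% and 0.463%. At these 3 loci the mother's japonica allele was near absent in both crosses. The paternal class and this class are both near 0% in LR, and in YW their medians are 31.9% and 3.44%.

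Medians at the maternal end were close. The 73 loci read at least 5 times above 2:1 from the mother in LR, RL and WY had medians of 99.7% in LR and 99.4% in YW, and 71 stayed at or above 90.9%. The 2 that did not were the Bet v I gene LOC_Os12g36880 (98.4% in LR, 86.1% in YW) and the F-box gene OsFBX7 (95.2% and 86.8%). The 299 loci read from the japonica allele had 99.8% and 99.2%, and 281 stayed at or above 90.9%, with a lowest YW value of 72.9%. Of the 73, 16 were called lower in share, and of the 299, 48 lower and 7 higher, against 1.88% lower and 6.5% higher among all loci.

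**Figure D3:**
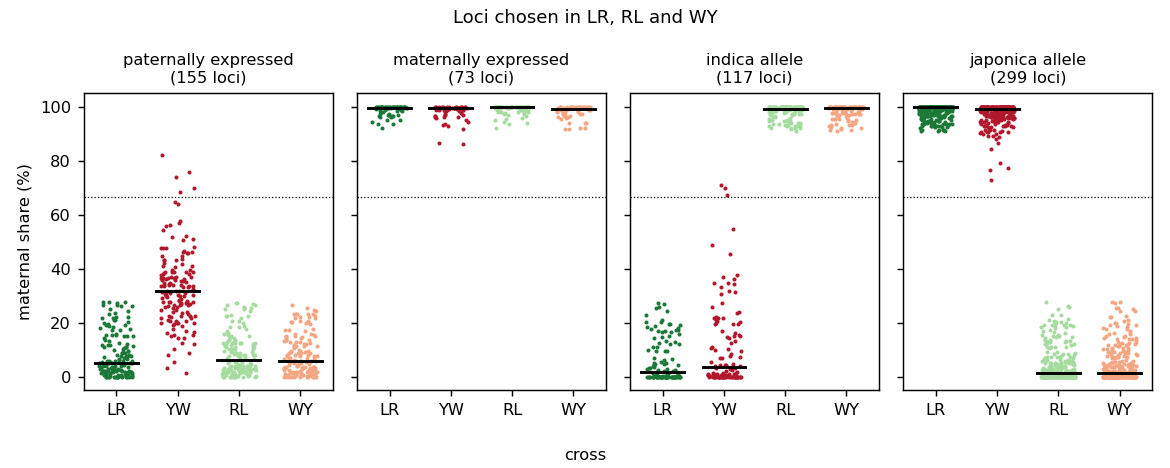
Maternal share in percent (y axis) of the loci of 4 classes in each cross (x axis), 1 point per locus and a black bar at the median; classes were chosen in LR, RL and WY, so only the YW points are free of the choice. In the paternal class YW spreads around its median of 31.9% while LR has 5.24%; in the indica class the YW median is 3.44%, with points up to 71.1%, and in the maternal and japonica classes it is 99.4% and 99.2%.

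Choosing in RL and WY alone, which share no library with the crosses compared, gave 583 loci far under 2:1 in both. There parent and strain are not separated. The 583 had medians of 92.0% in LR and 92.6% in YW, and YW was higher at 325. Of the 583, 149 were called higher and 49 lower, against 6.5% and 1.88% of all compared loci. Both directions were thus called more often than over all loci. Of these loci 196 lay under 2:1 in LR, with medians of 8.71% in LR and 35.9% in YW, and 387 over it, with 98.9% and 98.3%. Since the split uses the LR share, 1 of the values compared, it favours a higher YW value in the 196 and a lower one in the 387.

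Polycomb and DNA methylation genes showed the general shift and little more. OsFIE1 (LOC_Os08g04290), the endosperm WD40 subunit of Polycomb repressive complex 2, stayed maternal with 99.7% (99.3 to 99.9) in LR and 98.7% (97.8 to 99.2) in YW, a difference of 3 paternal reads of 1195 against 14 of 1052 that passed the call as lower. Its neighbour OsFIE2 (LOC_Os08g04270) had 67.2% and 76.0%. OsEMF2a (LOC_Os04g08034), a zinc finger subunit, had 89.4% and 92.2%, and OsEMF2b, with under 40 reads in each cross, 77.8% and 80.6%. The histone methyltransferase genes OsCLF and OsiEZ1 had 72.0 and 79.7%, and 79.7 and 80.5%.

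Of the 11 DNA methylation genes listed, 9 were compared. All 9 had the higher share in YW, against 82.9% of all loci, and none was called. OsMET1b (LOC_Os07g08500), a maintenance methyltransferase gene, went from 11.2 to 22.9%, and the argonaute gene OsAGO4b from 28.3 to 40.4%. OsROS1a (LOC_Os01g11900), the demethylase gene of the central cell, had 58.8% and 74.5%. OsDRM2, a de novo methyltransferase gene, had 77.3% and 79.5%, and OsCMT3a, OsDDM1b, OsAGO4a, OsDCL3a and OsRDR2 had 59.6 and 65.7%, 52.8 and 74.2%, 66.7 and 75.4%, 72.2 and 77.5%, and 67.9 and 71.3%. Of the intervals of these last 5, only those of OsAGO4a lay apart.

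Among 24 NAC transcription factor genes, 5 were called higher in share (20.8%, against 6.5% of all loci), and 4 of those are neighbours on chromosome 11 between 18288381 and 18313628. LOC_Os11g31330, the most read of them, had 2.24% in LR and 34.1% in YW, where maternal RPM were 419 and 4289 and paternal RPM 18282 and 8303. LOC_Os11g31340 had 1.16% and 12.2%, and LOC_Os11g31360 had 0.0901% (0.0555 to 0.146) and 1.43% (1.26 to 1.62). LOC_Os11g31380 had 1.02% and 57.8%, so that the mother gave most of its reads in YW, while RL had 8.05% and WY 0.384%. The neighbours thus shared a direction and ranged from 1.43 to 57.8% in YW; reads of such close paralogs can be shared between them. The fifth, LOC_Os01g70110, went from 70.1 to 91.1%.

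MADS-box genes, which encode transcription factors, had 2 of 7 called higher (28.6%, against 6.5% of all loci). OsMADS65 (LOC_Os01g69850) had 6.77% and 50.3%, with paternal RPM of 6.02 and 6.28, and OsMADS2 had 33.3% and 73.5% on 72 and 68 reads. OsMADS27, OsMADS22, OsMADS47, OsMADS4 and OsMADS56 were not called; OsMADS56 was the 1 of the 7 with a lower share in YW (56.8 and 42.9%).

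**Figure D4:**
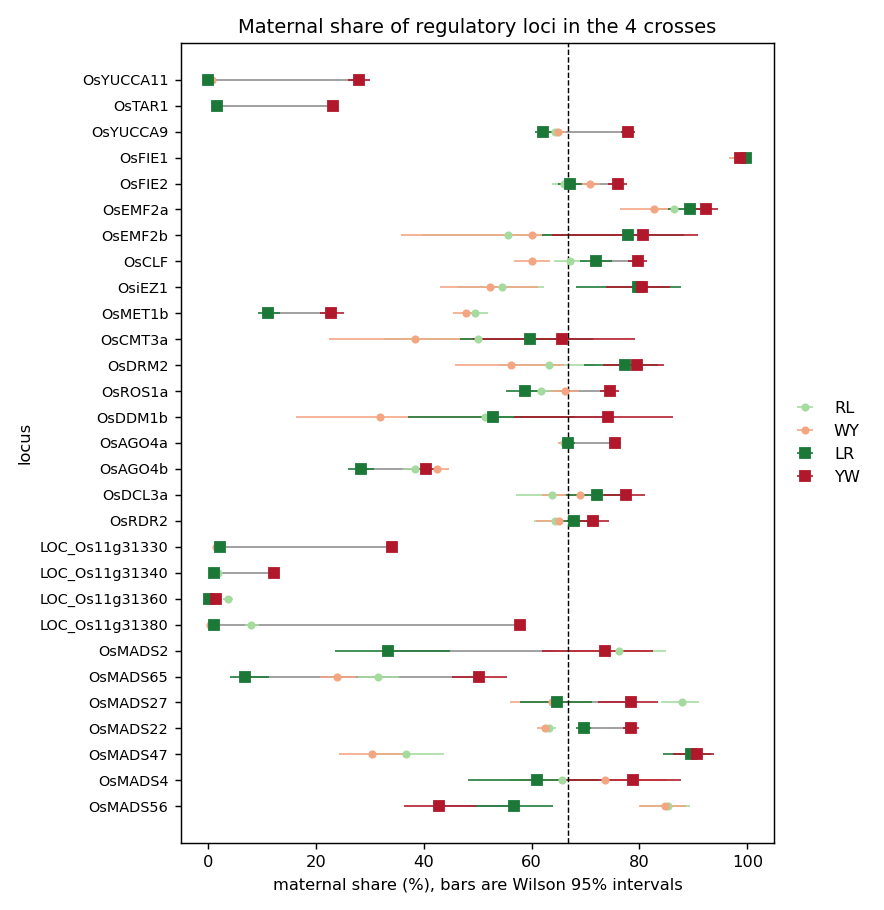
Maternal share in percent (x axis) of the listed auxin, Polycomb, DNA methylation and MADS-box loci and the chromosome 11 NAC neighbours (y axis) in the 4 crosses, with Wilson 95% intervals, a grey line joining LR and YW, and a dashed line at 66.7%. OsYUCCA11, OsTAR1 and LOC_Os11g31330 are near 0% in 3 crosses and lie at 28.01, 23.1 and 34.1% in YW, while most other loci move by less.

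F-box genes, which encode adaptors of ubiquitin ligases, had 23 of 244 called higher (9.43%, against 6.5% of all loci) and 7 lower (2.87%, against 1.88%). Several had no maternal read in LR: OsFBX116, OsFBX32 (0 of 249; 21.2% of 255 in YW) and OsFBX371 (0 of 416; 10.1% of 276). OsFBX364 and OsFBX365, neighbours on chromosome 10, had 2.02 and 35.8%, and 3.73 and 36.1%. Among NBS-LRR immune receptor genes 3 of 29 were called in each direction (10.3%, against 6.5% higher and 1.88% lower among all loci). Among chaperone genes 6 of 95 were higher (6.32%) and 1 lower (1.05%), near the backgrounds of 6.5% and 1.88%; the DnaJ gene LOC_Os03g27460 (2.52 and 23.96%) was 1 of the 6.

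Called loci also stood side by side: 7 stretches held 3 or 4 neighbouring compared loci that were all higher in share. Loci called higher in level formed such stretches too. No stretch was all lower in share, but only 1.88% of loci were called lower, against 6.5% higher. How many stretches in share these rates alone would give was not computed. Besides the NAC and F-box stretches, a chromosome 12 stretch (19354247 to 19426994) held LOC_Os12g32080 (0.593 and 24.8%), LOC_Os12g32150 (0.454 and 20.5%), LOC_Os12g32170 (69.2 and 98.0%) and the cornichon gene LOC_Os12g32180 (1.72 and 33.5%). The SNPs of LOC_Os12g32170 disagreed, with LR shares from 3.1 to 100%, and 6 of 8 lay on the side of the call. Around OsFBO11 on chromosome 2 the ankyrin genes LOC_Os02g29140 (1.12 and 35.6%) and LOC_Os02g29160 (1.82 and 31.9%) had the same pattern as OsFBO11, with RL and WY between 61.9 and 73.2%. Farther along chromosome 2 (18639297 to 19224704), LOC_Os02g31140, LOC_Os02g31220, LOC_Os02g31290 and LOC_Os02g32490 had shares of 59.6 to 66.2% in LR and 98.0 to 99.3% in YW. Each of these loci was read at 1 SNP only, except LOC_Os02g32490 at 2. In WY the same 4 had at most 2.13%, so at these SNPs nearly all reads of the Yu6 and Wufeng pair carried the Yu6 allele in both directions. RL had 57.0 to 69.8%.

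Of the 183 loci with a lower share in YW, 89 (48.6%, against 5.18% of all loci) were at or above 90.9% in LR, where a few paternal reads make a large difference in odds. OsFBX142 (LOC_Os04g40370) had 0 paternal reads of 2237 in LR (up to 0.134%) and was 98.7% maternal in YW. LOC_Os06g24711 had 99.9 and 94.4%, LOC_Os02g26790 99.9 and 98.4%, LOC_Os07g23120 99.5 and 91.4%, LOC_Os02g47330 100 and 92.9%, LOC_Os12g39440 100 and 98.1%, and LOC_Os01g28970, a Ty3-gypsy retrotransposon, 97.6 and 77.2%. All 7 were low in RL and WY, at 14.8% or less, so the japonica allele led in all 4 crosses. At LOC_Os07g23120 the 4 SNPs with 20 or more reads in each cross were 100% maternal in both LR and YW. Its lower share came from SNPs with fewer reads.

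At the other 3 named loci with a lower share the japonica allele did not lead in all 4 crosses. LOC_Os02g08330, annotated gp176, had 53.2% in LR (46.6 to 59.7) and 0 maternal reads of 106 in YW (up to 2.83%), with 90.5% in RL and 98.8% in WY. The lipid transfer protein gene LTPL31 (LOC_Os11g03870) had 69.1% and 3.75% (2.2 to 6.3), with 78.3% in RL and 94.1% in WY. The hydrolase gene LOC_Os07g14600 had 99.5% and 73.9%, with 52.7% in RL and 96.3% in WY. At gp176 and LTPL31 the Wufeng allele made up nearly all reads in both directions of its cross.

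With the parents exchanged, most of these calls had no counterpart. Of 604 loci higher in YW that had enough reads in RL and WY, 505 were called neither way between RL and WY. WY was lower at 74 (12.3%, against 3.28% of all 9348 loci) and higher at 25 (4.14%, against 2.81%). Of 180 loci lower in YW, WY was higher at 37 (20.6%) and lower at 8. A difference in strength between the strains' alleles would turn its sign when the parents are exchanged. Whether such differences lie behind any of these calls was not tested.

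Levels differed less evenly. A level was called different when RPM differed by at least 2-fold and the exact Poisson 95% intervals did not overlap. YW was higher at 922 loci (9.49%) and lower at 371 (3.82%), so 71.3% of calls were higher, with a median log2 ratio of 0.14 over all loci. Scaling by trimmed mean of M-values took 0.13 off every log2 ratio and gave 687 higher and 526 lower (56.6% higher), and other scalings ranged from 55.0 to 91.7% higher. Levels below are relative to all allele reads, and the sign of each gene list's median named below held under each scaling tried.

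Storage proteins gave the largest block of reads. Glutelins and prolamins, the proteins stored in the rice grain, made up 9.67% of allele reads in LR and 24.1% in YW, and 21.4% and 23.8% in RL and WY, so LR stood apart from the other 3. In such pooled tissue, fewer cells of a kind and less RNA per cell cannot be told apart. Of 18 loci, 12 were higher in YW (66.7%, against 9.49%) and none lower, with a median log2 ratio of 1.39 and, between WY and RL, 0.02. The glutelin gene LOC_Os01g55690 had 16264 RPM in LR and 78327 in YW (4.82-fold), and LOC_Os03g31360 had 12786 and 35038 (2.74-fold). LOC_Os10g26060 had 363 and 2550, and LOC_Os01g55630 had 73.4 and 636 (8.66-fold). The chromosome 2 glutelins LOC_Os02g14600, LOC_Os02g15070, LOC_Os02g15090, LOC_Os02g15150 and LOC_Os02g25640 lay 1.24 to 1.87-fold above LR and were not called.

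Among prolamins, PROLM28 (LOC_Os12g16890) had 4778 and 12863 RPM, and PROLM24 (LOC_Os06g31070) 5272 and 17672. PROLM14 had 66.1 and 61.0 and was not called. These genes have close paralogs between which reads can be shared. PROLM24 also differed in share, with 88.0% in LR, 99.4% in YW, 83.04% in RL and 54.3% in WY. Its paternal RPM were 633 in LR and 111 in YW. At the neighbouring PROLM23 (LOC_Os06g31060), on 1 SNP, shares were 40.8% in LR, 95.7% in YW, 66.2% in RL and 19.6% in WY. The Yu6 allele, paternal in WY, gave 2280 of 2837 WY reads at PROLM23 and 254101 of 555992 at PROLM24.

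Of 5 compared genes that bring sugar into the grain, 3 were lower in YW (60%, against 3.82% of all loci). Another 1 was higher (20%, against 9.49%). The sucrose synthase genes SUS3 (LOC_Os07g42490) and SUS2 (LOC_Os06g09450), which split sucrose at the entry to starch synthesis, had 15199 and 6501, and 6669 and 2637 RPM in LR and YW. OsSUT1, a sucrose transporter gene, had 30.7 and 14.4. These 3 were called lower, with log2 ratios of −1.23, −1.34 and −1.09; with storage proteins left out of the totals only SUS2 was. A further sucrose synthase locus, LOC_Os03g28330, had 118 and 23.6 RPM and its share went from 49.0 to 79.4%. The sugar exporter gene OsSWEET11 (LOC_Os08g42350) was higher, 8.99 and 23.9 RPM, and was read only from the mother in LR (0 of 267 paternal reads, up to 1.12%) and to 99.9% in YW. OsSWEET15 had 7.77 and 11.1 and was not called.

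Of 12 starch genes, 7 were compared, with 1 lower and 1 higher in level (14.3% each, against 3.82% and 9.49% of all loci). AGPS2 (LOC_Os08g25734), a subunit of the enzyme that makes ADP-glucose, was lower, with 8839 and 3445 RPM, and starch synthase SSIIIa (LOC_Os08g09230) was higher, with 177 and 532. SSIIa had 2017 and 1208, BT1, the plastid ADP-glucose carrier gene, 2004 and 1394, BEI 2725 and 3175, ISA1 945 and 1262, and PHO1 1008 and 1293; none of these 5 was called. All 7 had the higher maternal share in YW, against 82.9% of all loci. Triosephosphate isomerase (LOC_Os01g62420), of glycolysis, was lower, with 1888 and 400 RPM.

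Ribosomal protein and histone genes were more often lower than higher in YW. Ribosomal protein genes, 187 loci, were 8.78% of allele reads in LR and 5.79% in YW; 25 were lower (13.4%, against 3.82%) and 2 higher, with a median log2 ratio of −0.53, and 0.33 between WY and RL. The 60S protein L31 gene LOC_Os02g48660 had a log2 ratio of −1.46 and L29 LOC_Os02g51790 of −1.42. Among 30 histone loci 4 were lower (13.3%, against 3.82%) and 1 higher, with a median of −0.49. With storage proteins left out of the totals, 13 ribosomal loci were lower and 2 higher, and 1 histone locus was lower and 2 higher; both medians stayed under 0. The histone H3 gene LOC_Os04g34240 had a log2 ratio of −1.01 and LOC_Os03g06670, a core histone gene, −1.22. Chaperones had 8 of 95 higher (8.42%, against 9.49%) and 6 lower (6.32%, against 3.82%), and 15 and 2 with storage proteins left out.

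Transposon-annotated loci were higher more often: 62 of 241 (25.7%, against 9.49%), with 7 lower and a median of 0.50; the trimmed mean scaling gave 49 and 10. LOC_Os10g31330 had 36 reads in LR and 877 in YW, and LOC_Os04g55710 had 1102 and 6153. Between WY and RL 12 were higher and 9 lower, near the backgrounds of 4.61% and 4.71%. Their share calls, 13 higher and 11 lower, were 5.39 and 4.56% of the list, against 6.5% and 1.88% of all loci. Among regulators of imprinting, OsROS1a (24.8 and 80.6 RPM), OsCLF (29.1 and 66.8) and OsiEZ1 (2.15 and 5.8) were higher. The other Polycomb and DNA methylation genes were not called. That is 1 of 9 DNA methylation genes (11.1%) and 2 of 6 Polycomb genes (33.3%), against 9.49% of all loci.

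**Figure D5:**
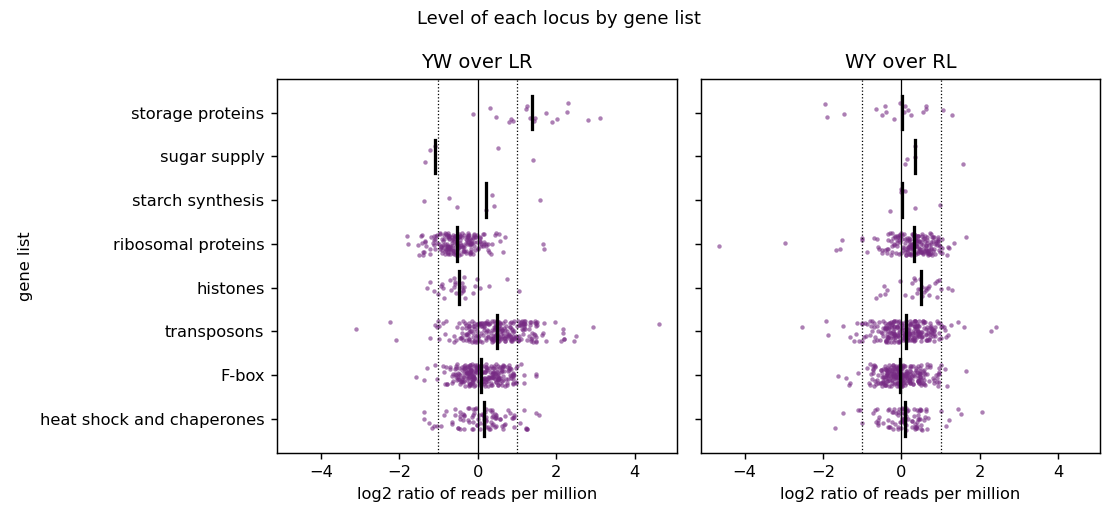
Log2 ratio of RPM (x axis) for each locus of 8 gene lists (y axis), YW over LR on the left and WY over RL on the right, with a black bar at each list's median and dotted lines at 2-fold. The storage protein median is 1.39 on the left and 0.02 on the right, and the ribosomal protein median −0.53 and 0.33.

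The 10 named increases were taken from loci with at least 3 SNPs. Every SNP with 20 or more reads in each cross lay on the same side. LOC_Os01g19894 had only 1 such SNP and LOC_Os05g41460 had 2. Genes of defence were among the 10. LOC_Os12g36880, of the pathogenesis-related Bet v I family, had 2.15 RPM in LR and 64.0 in YW (29.5-fold), with 1.6 in RL and 13.9 in WY. Its family member LOC_Os04g39150 had a log2 ratio of 3.15. Defensin-like DEFL9 (9.66 and 79.7) and DEFL1 (9.89 and 69.8) were 8.24 and 7.05-fold higher, and WY and RL differed little at both (log2 0.09 and 0.06). The cytochrome P450 gene LOC_Os08g39694 had 9.66 and 69.9, and LOC_Os10g24004, without annotation, 17.5 and 131, with a log2 ratio of 2.88 between WY and RL as well. The cysteine proteinase inhibitor gene LOC_Os05g41460 had 3.1 and 26.8. LOC_Os12g28090 had 2.52 and 19.0, and the transposon-annotated LOC_Os01g19894 had 3.23 and 24.9.

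In level, 57 of the 299 japonica loci were higher in YW (19.1%), and 22 of the 155 paternal loci (14.2%). Of the 117 indica loci 10 were higher (8.55%), against 9.49% of all loci. Of the 73 maternal loci, 15 were higher (20.5%) and 1 lower, LOC_Os07g20110. They included LOC_Os06g30280 (36.4 and 357 RPM), the cupin gene LOC_Os08g08960 (log2 2.51), the neighbours POEI14 and POEI15 (1.964 and 2.865), POEI3 (1.51), all 3 annotated with the pollen Ole e I allergen domain, the peroxidase gene LOC_Os11g10460 (1.77) and OsSWEET11. The maternal shares of these 7 stayed at or above 97.4% in both crosses. The green pericarp markers were also higher in YW in sum (113 and 180 RPM). Of the 3, 1 was called higher and 1 had a log2 ratio below 0, with a range from −0.06 to 2.72. The same markers summed to 46.8 RPM in RL and 79.8 in WY. Their part in these levels was not tested.

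By the same rule, decreases were led by LOC_Os07g41810, with a stress responsive A/B barrel domain, at 596 and 106 RPM (5.64-fold lower). The purple acid phosphatase gene LOC_Os08g17784 had 9.32 and 1.82, the transporter gene LOC_Os12g32940 186 and 49.4, and the mitochondrial import gene LOC_Os02g45820, a Tim subunit, 255 and 76.8. LOC_Os11g34940, a plastid ribosomal protein gene, had 45.6 and 13.3, and the RNA methyltransferase gene LOC_Os03g48050 9.19 and 2.78. LOC_Os09g21460 and LOC_Os10g11889, without annotation, were 4.11 and 3.39-fold lower. Only 1 SNP of LOC_Os08g17784 and 2 of LOC_Os03g48050 had 20 or more reads in each cross.

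The pair with exchanged parents moved the same way at a minority of level calls. Of 880 loci higher in YW, 106 (12.05%) were higher in WY than in RL and 39 (4.43%) lower, against 4.61% and 4.71% of all 9348 loci. Of 351 lower in YW, 42 (11.97%) were lower in WY and 9 (2.56%) higher. LOC_Os12g32940, LOC_Os03g28330 and LOC_Os07g41810 were among those lower in both, with log2 ratios between WY and RL of −1.36, −1.45 and −1.02.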

How the data were processed

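Endosperm RNA was sequenced, and the deposited tables give whole-number counts of maternal and paternal allele reads per SNP and cross, replicates pooled, per the file headers. Tools listed in the submitters' processing notes are GATK 3.5, SAMtools 0.1.16, Bowtie2 2.2.1 and Trimmomatic 0.32, with no order. No build of the genome is named there, and coordinates are those of the tables. Each listed SNP has at least 11 reads, which limits the loci seen. The p-values per SNP that the authors deposited were not used.

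Counts were summed per locus over SNPs present in both tables with the same alleles. Of the positions, 46985 were in both (76.2% of those of LR and RL, 80.2% of those of YW and WY), and 46982 had the same alleles. A read spanning several SNPs is counted at each, so intervals, which cover counting error only, are too narrow. Calls added 0.5 to each count; limits for a count of 0 use 3 counts. Loci without shared SNPs were left out. With 1 pooled value per cross, no count model could be fitted. Locus names came from the tables.

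Named loci were the 10 largest called differences per direction with at least 3 SNPs, all SNPs with 20 or more reads on the same side (for shares, at least 100 reads per cross), and members of gene lists; others were named after their values were seen. Members and lists were chosen with earlier results of these data known. Calls were tested on simulated counts of 9712 loci: of 50 loci per direction changed 4-fold, 47 and 43 were recovered for share and 50 and 50 for level, with 45 and 2 false calls among 9512 unchanged loci. The simulated counts held independent counting error only, without spread between libraries or reads counted at several SNPs. Their starting shares were kept away from both ends of the scale. The false calls therefore do not measure the error of the calls on the real counts. Tools were Python 3.11.15, pandas 2.3.3, scipy 1.17.1 and, for trimmed mean scaling only, edgeR 4.0.16 in R 4.3.3.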

Additional observations from a re-analysis of the deposited data

Results flagged for a closer look

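Over all compared loci, the level was called higher in YW and lower in WY at 39 loci, and lower in YW and higher in WY at 9. Of these, 4 were among the named loci and the members of the smaller gene lists and are given here. The difference between these effects was not tested, since each cross is 1 pooled value. PROLM17 had log2 ratios of 1.89 (YW over LR) and −1.95 (WY over RL), and its neighbour PROLM16 2.31 and −1.46. The cysteine proteinase inhibitor gene LOC_Os05g41460 had 3.11 and −3.52, and the maternal locus LOC_Os06g30280 had 3.29 and −1.37.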

How the results depend on the processing

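No paired analysis was possible because the tables hold no column per replicate; leaving out each replicate was not run for the same reason. Using only the most-read SNP per locus gave 92 loci lower in share, and turned the difference in log2 odds of the histone gene LOC_Os12g22650 to 0.51. Using all SNP positions gave 823 loci lower in level and a median share of 74.9% in YW. At least 100 reads in both crosses gave 384 higher in share and 573 higher in level. Without centring, 1455 were higher in share. A 4-fold rule gave 235 and 98 for share and 78 and 18 for level, higher and lower. Leaving storage proteins out of the totals, chosen after seeing the data, gave 1728 higher and 156 lower in level. The causes were not tested, apart from fewer loci or a stricter rule by construction. The remaining counts and medians over all loci, and the medians of the paternal and indica classes, moved by less than 1.5 times or within their intervals. Gene lists moved more: histones had 7 lower under trimmed mean or median-of-ratios scaling, and ribosomal proteins 38 under the latter. With storage proteins left out F-box genes had 29 higher in level (6 otherwise), NBS-LRR genes 8 (3), and the ribosomal and histone medians were −0.27 and −0.23. Over 48 named loci with share calls, 388 recomputed values kept the call, 32 lost it and 1 reversed. Over 54 with level calls, 520 kept it and 54 lost it. These totals pool all settings. With only the most-read SNP, 27 of the share calls were kept, 14 were lost and 1 reversed, and 43 of the level calls were kept and 1 lost. Depth limits loci with few reads, such as OsEMF2b.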

Other observations

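The tables share SNP positions unevenly along the genome. In windows of 1 Mb with at least 30 SNPs, a median of 82.5% of the LR and RL positions were also in the table of YW and WY, and 84.8% the other way. In 7 of 351 windows under 5% of the LR and RL positions were shared, holding 1811 SNPs: on chromosome 2 from 19 to 20 Mb, chromosome 4 from 18 to 19 Mb, chromosome 5 from 25 to 27 Mb and chromosome 6 from 1 to 4 Mb. In 4 of 346 windows the same held for YW and WY positions, with 668 SNPs, on chromosome 1 from 33 to 34 Mb, chromosome 5 from 29 to 30 Mb, chromosome 6 from 3 to 4 Mb and chromosome 9 from 19 to 20 Mb. Loci in these windows could mostly not be compared. The starch genes Wx, SSI, BEIIb and AGPL2 had SNPs in the LR and RL table and none in the other.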
